A study of Mus musculus with 3 samples.

Results

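Skeletal muscle-marker-rich barcodes were examined in single-nucleus libraries of the mouse cornea. A barcode is the tag of a droplet, and the counts under it can come from a nucleus, from free RNA or from both. Each library held RNA of 5 pooled mice at 7 weeks of age, from whole corneas that had been frozen and lysed: wild-type mice left untreated (WT), untreated mice lacking Aire (KO), and mice lacking Aire that received PBS, a buffered salt solution, over 14 days (KO_PBS). The gene Aire drives the display of self-antigens in the thymus, and its loss leads to autoimmune dry eye. The series text gives 6 weeks and day 7 for a design that also names lacripep, and that arm was not analysed here. Members were chosen by their levels of 14 muscle genes. A barcode was a member when it had at least 500 genes, at most 5% mitochondrial UMIs (unique molecular identifiers, the counted molecules), UMIs of at least 4 of these genes, and a summed share of these genes at least 10 times that of its library. The 14 rule genes were Ttn, Neb, Ryr1, Myh1, Myh2, Myh4, Actn2, Actn3, Mybpc1, Mybpc2, Myot, Tnnt3, Acta1 and Ckm. The rule found 151 members among 315471 barcodes that passed the gene and mitochondrial limits, of 317975 in all. There were 24 members in WT, 24 in KO and 103 in KO_PBS.

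Skeletal muscle fibres are long cells with many nuclei that share a cytoplasm packed with sarcomeres. In a sarcomere, myosin thick filaments pull on actin thin filaments when calcium binds the troponin complex. Calcium leaves the sarcoplasmic reticulum through the channel Ryr1 once the membrane is depolarised. The cornea has no skeletal muscle of its own, and the muscles nearest to it move the globe and the lids. Extraocular muscle is known for keeping myosins, such as embryonic Myh3, that limb muscle loses after birth.

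Each group was a single library, so differences between them could not be set against replicates and were not tested. Intervals are exact 95% Poisson intervals for levels and exact binomial (Clopper-Pearson) intervals for shares, and they cover counting error only. Levels are in CPM, the UMIs of a gene or list scaled to a fixed total of 1e6 UMIs over the summed barcodes. The WT file held 256852883 UMIs, that of KO 352627863 and that of KO_PBS 178988562. Members accounted for 130847, 116147 and 203208 of them, in that order. Aire itself had 15, 27 and 68 UMIs in the whole libraries and 0 in the members of each, so it did not check the labels. The libraries pairwise shared 2833 to 3379 barcode sequences, but no member of a library shared its barcode with a member of another. The barcode of 2 WT, 0 KO and 3 KO_PBS members occurred in another library, and without them 22, 24 and 100 remained.

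The upstream sequences of 4 muscle genes are shown first because levels of these genes set the members of the libraries apart below. Each run gives the 250 bases before the RefSeq start (GRCm38.p6), 5′ to 3′ on the gene's strand. Capitals mark the E-box CANNTG, the letters that myogenic factors of the Myod1 family are known to bind, and the MEF2 motif. Mylpf encodes the fast regulatory myosin light chain and Tnnc2 the fast troponin C. Myh3 encodes embryonic myosin heavy chain, and Xirp2 an actin-binding repeat protein of striated muscle.
Mylpf, chr7:127211358-127211607, plus strand: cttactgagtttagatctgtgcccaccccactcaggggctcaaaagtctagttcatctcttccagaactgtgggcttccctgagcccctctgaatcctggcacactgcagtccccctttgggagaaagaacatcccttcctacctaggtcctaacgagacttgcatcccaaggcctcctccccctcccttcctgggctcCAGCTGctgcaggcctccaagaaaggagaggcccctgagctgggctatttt
Tnnc2, chr2:164779735-164779984, minus strand: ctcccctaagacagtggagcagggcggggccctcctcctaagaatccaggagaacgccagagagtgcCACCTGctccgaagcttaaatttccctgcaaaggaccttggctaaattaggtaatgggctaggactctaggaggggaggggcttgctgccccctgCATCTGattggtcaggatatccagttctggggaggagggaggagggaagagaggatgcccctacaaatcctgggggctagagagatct
Myh3, chr11:67078050-67078299, plus strand: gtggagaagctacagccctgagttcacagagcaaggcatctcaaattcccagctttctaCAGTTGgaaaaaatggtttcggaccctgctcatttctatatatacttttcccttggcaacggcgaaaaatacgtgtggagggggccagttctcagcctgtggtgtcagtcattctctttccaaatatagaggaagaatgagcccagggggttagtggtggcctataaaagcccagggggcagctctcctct
Xirp2, chr2:67445752-67446001, plus strand: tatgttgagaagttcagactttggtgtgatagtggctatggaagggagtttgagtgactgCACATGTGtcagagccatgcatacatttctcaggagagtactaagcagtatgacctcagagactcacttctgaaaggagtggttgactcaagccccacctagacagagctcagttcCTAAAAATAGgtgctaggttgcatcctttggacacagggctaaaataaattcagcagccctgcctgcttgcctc

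Mylpf held 1 E-box in this window, Tnnc2 held 2, Myh3 held 1 and Xirp2 held 2 that overlap. Xirp2 alone of these held a MEF2 motif, 1 in number. Promoters were found for 16 of the 20 leading muscle genes defined below and for 10 of the 14 rule genes. An E-box lay in the window of 13 of the 16 leading genes and 7 of the 10 rule genes, beside 69.3% of all 27025 genes with a promoter entry. The form CAGCTG lay in 9 of the 16 and 4 of the 10, beside 14.7% of all genes. A MEF2 motif lay in 2 of the 16 and 3 of the 10, beside 3.42% of all genes. Motifs were searched on both strands, and CAGCTG is itself a form of CANNTG. A match is only a run of letters in the window.

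The members were rare in every library and carried few muscle UMIs each. Per 1e4 passing barcodes there were 2.49 members in WT (1.59 to 3.70), 2.24 in KO (1.44 to 3.34), and 9.20 in KO_PBS (7.51 to 11.2), each with its exact binomial interval. The rule genes gave a median of 13 UMIs per member in WT (5 to 125), 7 in KO (4 to 30) and 11 in KO_PBS (4 to 68). Members with exactly 4 rule genes, the minimum, numbered 5 of 24 for WT, 14 of 24 for KO and 50 of 103 for KO_PBS. KO members thus lay nearest to that edge of the rule, while a WT member reached 8 rule genes and a KO_PBS member 10. The rule genes made up a median of 0.485% of the UMIs of a WT member, 0.183% of a KO member and 0.592% of a KO_PBS member, with highest values of 1.75%, 0.634% and 2.40%. These values chose the members and are a description.

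The share threshold differed between the libraries because each was set against its own total. It was 169.9 CPM for WT, 247 for KO and 2418 for KO_PBS. In WT and KO the lowest members stood well above it, at 563 and 642 CPM, whereas in KO_PBS the lowest stood at 2445 CPM. Below it, 1 barcode in WT, 0 in KO and 48 in KO_PBS had at least 4 rule genes with too low a share, at 99.4 CPM in WT and from 397 to 2378 CPM in KO_PBS. A further 23, 34 and 111 barcodes met the share with only 3 rule genes. With a common threshold, the mean of the libraries, the numbers of members were 22, 19 and 141. Depth differed as well, since WT members had a median of 3766 UMIs, KO members 4166 and KO_PBS members 1753, beside 2262, 2980 and 1446 in all passing barcodes. When each barcode was thinned to 1000 UMIs, 8 members were found in WT, 0 in KO and 58 in KO_PBS.

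**Figure D1:**
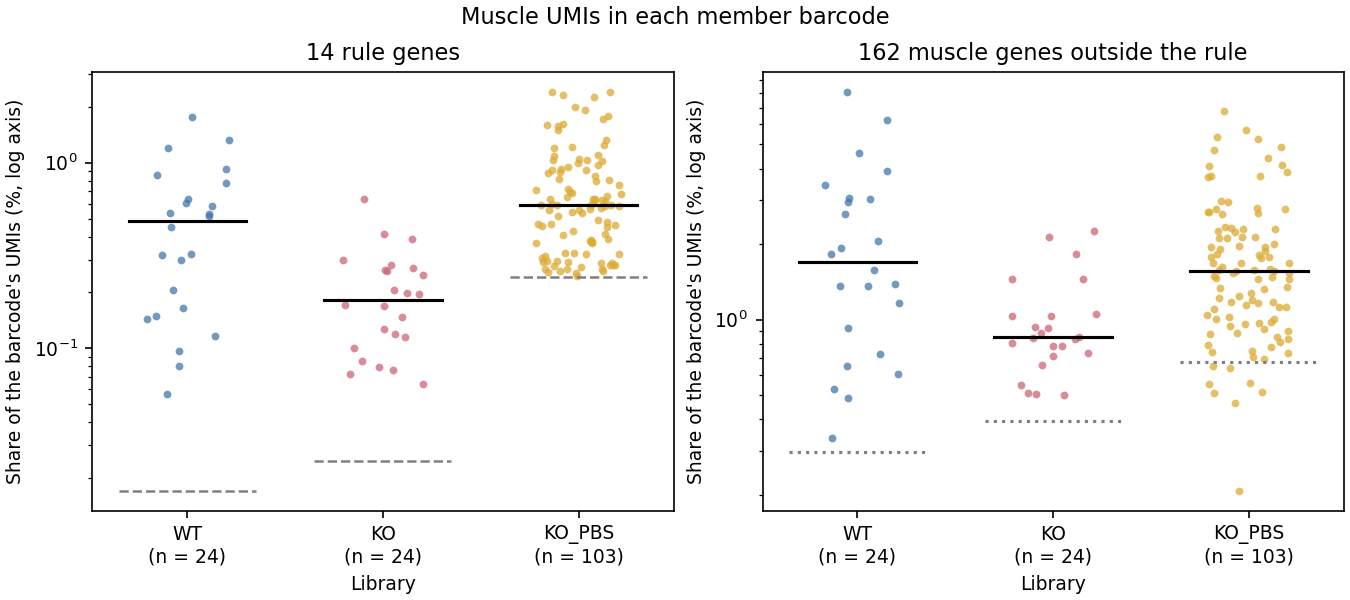
Each point is a member barcode, placed by library; the left panel gives the share of its UMIs from the rule genes and the right panel the share from muscle genes outside the rule, both in % on log axes. Black bars are medians, dashed lines the rule's threshold and dotted lines the median of the other passing barcodes; on the left KO_PBS members start at their threshold, while WT and KO members lie above theirs.

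Most UMIs of the rule genes lay outside the members. Over all barcodes the rule genes were at 16.99 CPM for WT, 24.7 for KO and 242 for KO_PBS. Of these UMIs the members held 13.6%, 2.54% and 3.55%, in that order. The 25% of barcodes with the fewest UMIs, which stand in for free RNA but were not shown to be empty, had the rule genes at 16.1, 25.8 and 254 CPM. Muscle transcripts were therefore present at about the library's mean level in the shallowest barcodes, and highest in the library labelled KO_PBS.

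The UMIs of the single rule genes are given as a description of the selection, since these genes chose the members and the threshold was far higher in KO_PBS. Nebulin (Neb), which runs along the thin filament, had 25 UMIs in WT members, 10 in KO members and 155 in KO_PBS members, and myosin-binding protein Mybpc1 had 31, 9 and 162. Actn2, the actinin that crosslinks actin at the Z-disc, had 6, 5 and 95, and the Z-disc protein gene Myot 4, 3 and 24. The calcium release channel gene Ryr1 had 6, 5 and 35. Skeletal actin (Acta1) had 153, 43 and 79 UMIs, fast troponin T (Tnnt3) 156, 38 and 118, and creatine kinase (Ckm) 97, 32 and 77. Mybpc2 had 2, 1 and 4, and Actn3, the actinin of fast fibres, had 0 in the members of each library. In other KO_PBS barcodes Acta1, Tnnt3 and Ckm were at 39.8, 47.4 and 39.5 CPM, above Neb at 11.4, Mybpc1 at 13.4 and Actn2 at 12.98 CPM.

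Summed over the members, muscle genes that the rule did not use were also higher than in the other passing barcodes. From 8 muscle lists, 162 genes outside the rule were measured. Together they were at 22935 CPM in WT members (22122 to 23771), 10056 in KO members (9488 to 10650) and 19310 in KO_PBS members (18711 to 19924). The other passing barcodes had them at 3073, 4016 and 6970 CPM, which includes genes such as Gapdh and Aldoa that every cell uses. By barcode, these genes made up a median of 1.70% of the UMIs in WT members, 0.849% in KO members and 1.56% in KO_PBS members, with highest values of 8.06%, 2.26% and 6.78%. The lowest values were 0.336%, 0.502% and 0.207%, beside medians of 0.296%, 0.395% and 0.678% in other barcodes. The lowest KO_PBS members thus lay below the median of other barcodes. Above the 95th percentile of other barcodes lay 22 of 24 WT members, 20 of 24 KO members and 73 of 103 KO_PBS members. Since the same barcodes were compared as in the rule, this is a description with no test. Of all genes tested, 5.05% were at least 2-fold higher with intervals apart in WT members than in the other barcodes, 1.66% in KO members and 2.23% in KO_PBS members. Of the 162 muscle genes, 70 were so for WT, 40 for KO and 78 for KO_PBS.

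The 20 leading genes outside the rule, those with the largest fold over other barcodes averaged across libraries, were all muscle genes. They were, in order, Tnnc2, Tcap, Mylpf, Myl1, Mb, Myh3, Tnni2, Atp2a1, Eno3, Cox6a2, Mylk4, Ckmt2, Pgam2, Trdn, Csrp3, Ldb3, Hspb6, Des, Smpx and Nrap. The first, Tnnc2, the calcium sensor of fast fibres, was at 1941 CPM in WT members (1710 to 2195), 870 in KO (708 to 1057) and 315 in KO_PBS (243 to 402). Other passing barcodes had it at 1.43, 3.86 and 42.1 CPM. Tnnc2 thus stood apart from the other barcodes by the widest margin in WT and the narrowest in KO_PBS. It had a UMI in 19 of 24, 21 of 24 and 27 of 103 members. Tnni2, the inhibitory troponin of fast fibres, was at 1582, 758 and 340 CPM.

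Mylpf was at 3004 CPM in WT members (2714 to 3316), 491 in KO (372 to 636) and 285 in KO_PBS (217 to 369). A single WT barcode gave 157 of the 393 Mylpf UMIs, and without it the WT level was 2010 CPM. That barcode held 23.4% of the UMIs of the leading genes in WT, and the 6 richest members held 72.5%. The richest member held 14.3% in KO and 9.10% in KO_PBS. The 6 richest held 58.6% in KO, and the 26 richest of 103 held 69.1% in KO_PBS. Myl1, the fast essential myosin light chain, stood at 1559 CPM among WT members, 258 among KO and 374 among KO_PBS members. Both light chains were highest in WT.

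Among genes of the muscle membrane, the Z-disc and calcium release, several were highest in KO_PBS members and others in WT members. Titin (Ttn), the spring that spans the sarcomere, was at 604 CPM in WT members, 456 in KO and 2977 in KO_PBS, but it is a rule gene and its level is a description of the selection. Dystrophin (Dmd), which ties the cytoskeleton to the membrane and is no rule gene, was at 191 CPM in WT members (124 to 282), 164 in KO (98.5 to 255) and 2131 in KO_PBS (1935 to 2341). Dmd had a UMI in 7 of 24 WT members, 6 of 24 KO members and 60 of 103 KO_PBS members, or in 5, 2 and 46 of 99 after thinning to 1000 UMIs. Dmd was also higher in the other passing barcodes of KO_PBS, at 22.9, 22.4 and 200.3 CPM in the same order, and 20.1% of those of KO_PBS had a Dmd UMI (14.6% after thinning). Ldb3, a Z-disc scaffold, was at 61.1, 43.0 and 389 CPM, and Trdn, which anchors the calcium release complex, at 84.1, 77.5 and 399 CPM. For Dmd, Ldb3 and Trdn the KO_PBS members were the high ones and WT and KO members overlapped in their intervals. The Z-disc genes Tcap, at 1307, 344 and 251 CPM, and Csrp3, at 367, 8.61 and 187 CPM, were highest in WT members. Of the 17 Z-disc and M-band genes with enough UMIs, 10 were at least 2-fold higher with intervals apart in KO_PBS than in WT members and 1 was lower, namely Tcap, beside 17.7% and 6.51% of all genes tested. Only 6 genes of this list had 20 UMIs over KO and WT members. Most of the 17 thus reached that limit through KO_PBS, and the count depends in part on it. In other barcodes of KO_PBS against WT all 29 genes of the list had enough UMIs, and 25 were higher, beside 58.2% of all genes tested. Their median log2 ratio there was 2.90, beside 1.72 in members, so higher levels in KO_PBS were not particular to the members.

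Xirp2 had 6 UMIs in WT members, 0 in KO members and 102 in KO_PBS members, where it was at 502 CPM (409 to 609). The interval of that 0 reaches 31.8 CPM. In KO_PBS, 19 of 103 members had a UMI and a single member had 30. Other passing barcodes held Xirp2 at 3.99, 2.21 and 3.13 CPM, so outside the members KO_PBS stood below WT and above KO. Agbl1, a deglutamylase gene chosen as 1 of the genes with the largest ratio of KO_PBS to WT members, was at 635 CPM in KO_PBS members, 22.9 in WT and 0 in KO.

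**Figure D2:**
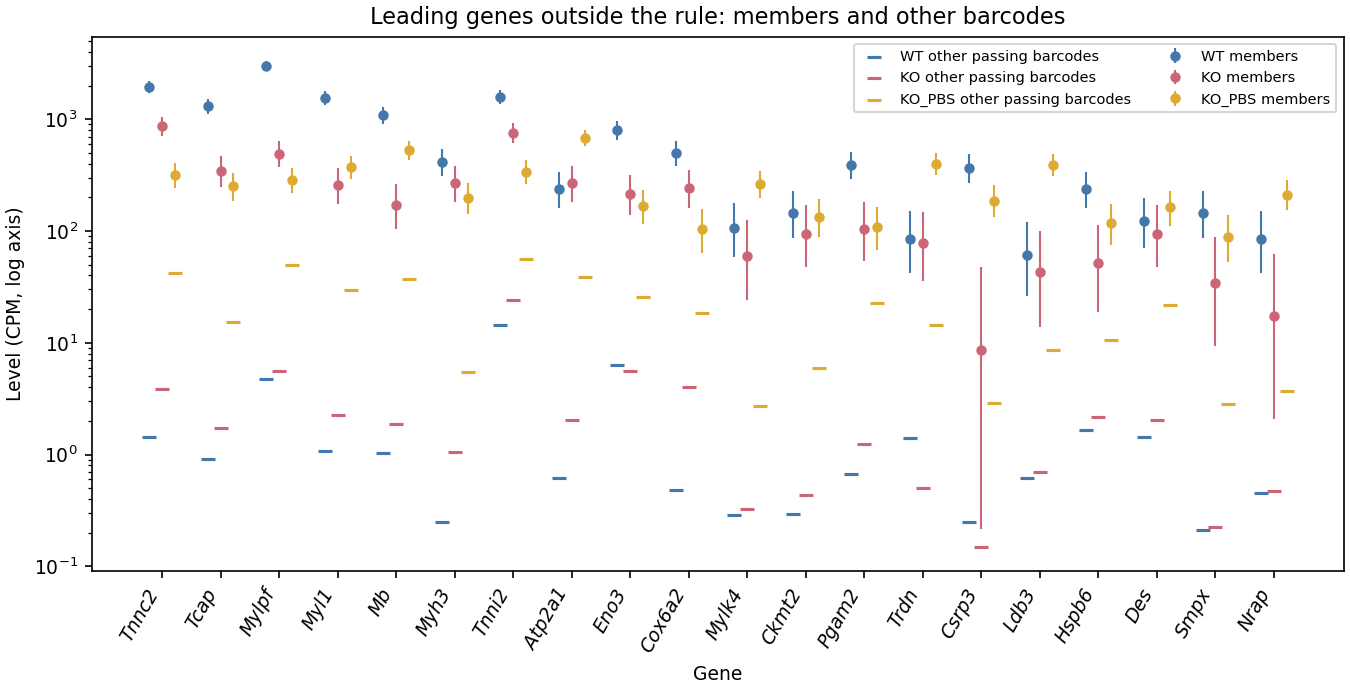
Levels of the 20 leading genes outside the rule in CPM on a log axis, with members as points (bars are 95% Poisson intervals of counting error) and the other passing barcodes of the same library as dashes. WT members are highest for Tnnc2, Tcap, Mylpf and Myl1, KO_PBS members for Atp2a1, Trdn, Ldb3 and Nrap, and the dashes of KO_PBS lie above those of WT.

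The lists describe the same split by role. Sarcomere filament genes outside the rule were at 10814 CPM in WT members (10258 to 11393), 3737 in KO (3393 to 4105) and 2771 in KO_PBS (2546 to 3009). Fast fibre genes were at 10264, 3186 and 2692 CPM. Slow fibre genes were at 558, 525 and 438 CPM, beside 208, 297 and 328 in other barcodes, where the broadly used Tpm3 and Atp2a2 make up much of the list. The slow myosin Myh7 had 0 UMIs in WT and KO members and 1 in KO_PBS members. The fast fibre list was thus highest in WT members, and the intervals of KO (2869 to 3527) and KO_PBS (2471 to 2927) overlapped.

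Several other lists were highest in KO_PBS, in the members and in the other barcodes. Z-disc and M-band genes were at 2904 CPM in WT members (2620 to 3211), 1162 in KO and 4075 in KO_PBS (3802 to 4362), with the upper bound of KO at 1376, beside 257, 378 and 504 CPM in other barcodes. Genes of excitation-contraction coupling, which turn depolarisation into calcium release, were at 1162, 956 and 2500 CPM beside 246, 407 and 615. The dystrophin complex list was at 711, 456 and 3327 CPM beside 229, 320 and 868. Muscle transcription factors were at 459, 474 and 1486 CPM beside 222, 419 and 808. Relative to the other barcodes of their own library, WT members stood higher than KO_PBS members for the Z-disc list, 11.3-fold beside 8.08-fold. The folds were 4.72 and 4.06 for the coupling list, 2.06 and 1.84 for the factors and 3.10 and 3.83 for the dystrophin list, and their counting intervals overlapped. Mef2c, a factor of the muscle programme, was at 138, 77.5 and 330 CPM. In other barcodes Mef2c was at 8.36, 55.6 and 53.3 CPM, so KO members did not stand apart for it. Energy metabolism genes, Ckm left out, were highest in WT members, at 6137, 2703 and 4424 CPM, and the oxygen store myoglobin (Mb) among them at 1085, 172 and 527 CPM.

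Neuromuscular junction and stem cell lists stood near the level of the other barcodes, while the myotendinous list stood above it in WT and KO_PBS. The neuromuscular junction list was at 168 CPM in WT members, 146 in KO and 246 in KO_PBS, beside 151, 162 and 261 in other barcodes. None of its 14 genes was 2-fold higher in members of any library, though at this depth 8, 9 and 5 of them had 0 UMIs. Satellite cell genes, which mark muscle stem cells, were at 329, 387 and 335 CPM beside 279, 323 and 373. Of its 13 genes 10, 10 and 12 had enough UMIs, and 2, 0 and 1 were 2-fold higher, beside 5.05%, 1.66% and 2.23% of all genes tested. The myotendinous junction list was at 581 CPM in WT members (458 to 727) beside 245, at 422 beside 380 in KO, and at 482 (392 to 588) beside 348 in KO_PBS. Of its 9 genes 3, 0 and 3 were 2-fold higher, beside the same shares of all genes. In WT its Ankrd1, a stretch-responsive gene, had 15 UMIs in the members, 12 of them in a single barcode, and 0 in KO and KO_PBS members.

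Myosin heavy chain genes differ between fibre types. The counted genes Myh3, Myh2, Myh1, Myh4, Myh8 and Myh13 lie in this order on the plus strand of chromosome 11, from base 67078300 to 67371586 (GRCm38, GENCODE M21), and Myh15 on chromosome 16. Reads can be split between such near-identical copies, so the mix is uncertain. Members held 102 UMIs of 10 Myh genes in WT, 58 in KO and 270 in KO_PBS. Myh3 made up 52.9% of them in WT (42.8 to 62.9%), 53.4% in KO (39.9 to 66.7%) and 14.8% in KO_PBS (10.8 to 19.6%). Without the member richest in Myh3 these shares were 37.1%, 40.5% and 12.1%. In other barcodes Myh3 made up 10.7%, 24.8% and 12.5% of the Myh UMIs, so the share in KO_PBS members had its library's value within its interval. The KO share without its richest member had an interval of 24.75 to 57.9%, which just held its library's 24.82%. The rule genes Myh1, Myh2 and Myh4 are in the denominator and their threshold was highest in KO_PBS, so the Myh shares depend in part on the rule and are a description. Myh3 had a UMI in 8 of 24, 7 of 24 and 14 of 103 members, and in 3, 3 and 11 of these together with the adult Myh1, Myh2 or Myh4. In other barcodes Myh3 was at 0.250, 1.05 and 5.49 CPM, and 0.0653%, 0.334% and 0.835% of them had a UMI.

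Adult fast myosins were read in every library. Myh2, of fast oxidative fibres, made up 24.5% in WT members, 17.2% in KO and 29.3% in KO_PBS, and Myh1 10.8%, 17.2% and 24.8%. In other barcodes Myh2 made up 14.7%, 21.1% and 27.3% of the Myh UMIs, and Myh1 15.9%, 24.9% and 28.7%. The KO_PBS values of other barcodes lay within the intervals of the member shares, 23.9 to 35.1% for Myh2 and 19.8 to 30.4% for Myh1. Myh4, of the fastest fibres, had 0 UMIs in WT members, 2 in KO and 38 in KO_PBS, where a single barcode held 19. With that barcode Myh4 made up 14.1% in KO_PBS members (10.2 to 18.8%) and without it 7.57% (4.62 to 11.6%), beside 12.4% in other KO_PBS barcodes. Myh15, a divergent myosin that extraocular muscle is known to hold, made up 7.84%, 1.72% and 13.3%. It stood at 177 CPM in KO_PBS members (124 to 245) beside 3.43 CPM in other barcodes. Myh13, the extraocular superfast myosin, had 0, 1 and 0 UMIs, and the cardiac Myh6 had 0 in the members of each library. The exact interval of the 0 of Myh13 reaches 3.55% of Myh UMIs in WT and 1.36% in KO_PBS.

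**Figure D3:**
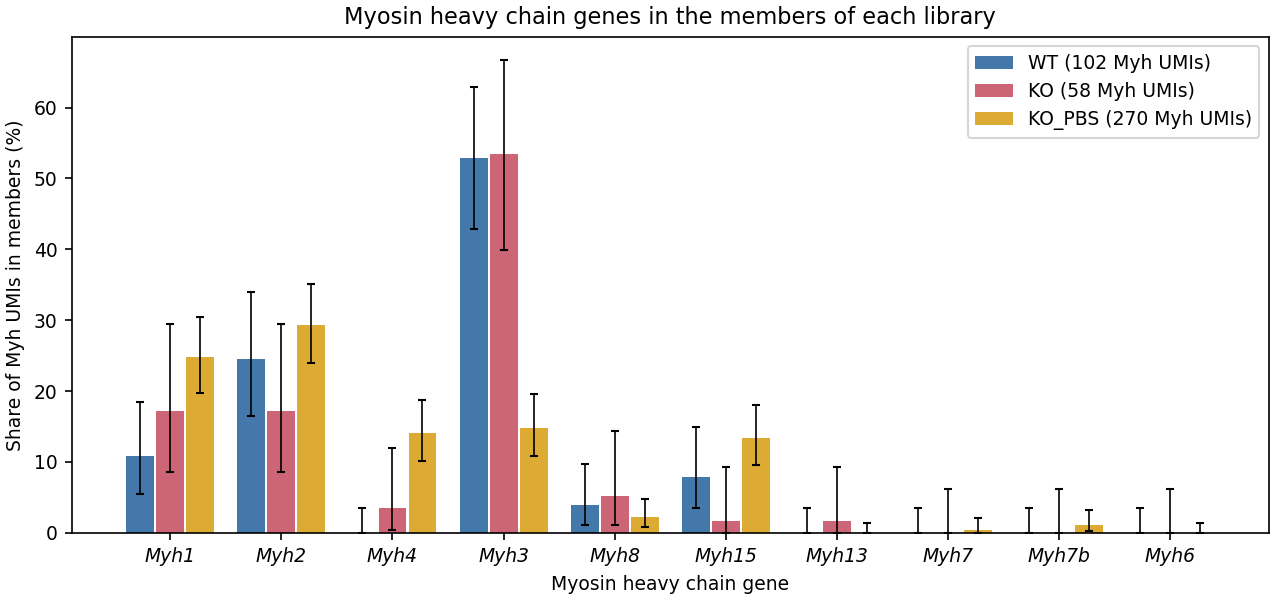
Share of each myosin heavy chain gene among the Myh UMIs of the members, in % per library, with exact 95% binomial intervals. Myh3 stands above 50% in WT and KO and at 14.8% in KO_PBS, where Myh1 and Myh2 are the highest bars. Other KO_PBS barcodes, not shown, had Myh1 at 28.7% and Myh2 at 27.3%.

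Members of different libraries were then compared, KO against WT first. By a rule of size (at least 20 UMIs over both sums, 2-fold, intervals apart), 152 of 1813 genes were higher in KO members, 8.38%, and 71 were lower, 3.92%. In other passing barcodes 19.3% were higher and 10.6% lower. Among the muscle genes outside the rule with enough UMIs, 13 of 36 were lower and 1, the tropomyosin gene Tpm3, was higher, with a median log2 ratio of -0.62 beside 0.10 over all genes tested. WT members held 3001 UMIs of the muscle genes outside the rule and KO members 1168. Many of the 36 could thus reach the limit through WT, where they were high. The counts and the median in members depend in part on that limit. In other barcodes, where 158 of the muscle genes had enough UMIs, they had a median of 0.29. The lower ones included Mb (-2.66), Mylpf (-2.61), Myl1 (-2.59), Tcap (-1.92), which caps titin at the Z-disc, and Tnnc2 (-1.16). Csrp3, a Z-disc sensor of stretch, had 48 UMIs in WT members and 1 in KO members, with 20 of the 48 in a single barcode. In other barcodes Mylpf (0.23), Myl1 (1.09), Tcap (0.94) and Mb (0.86) were at like or higher levels in KO, whereas Csrp3 (-0.73) and the muscle cytochrome oxidase subunit Cox8b (-1.82) were lower there too.

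KO_PBS members were compared with those of KO and of WT, comparisons that share the KO_PBS library, as the first shared KO and WT with these. Against KO, 279 of 3043 genes were higher, 9.17%, and 139 were lower, 4.57%, beside 43% and 4.62% in other barcodes. Of the muscle genes outside the rule, 29 of 61 were higher and 3, namely Tnnc2, Tnni2 and the muscle cytochrome oxidase subunit Cox6a2, were lower (median 1.26, beside 0.11 over all genes tested and 2.12 for the muscle genes in other barcodes). Against WT, 518 of 2932 genes were higher, 17.7%, and 191 were lower, 6.51%, beside 58.2% and 3.89% in other barcodes. Centred on the median of all genes these became 269 and 409. Of the muscle genes 25 of 72 were higher and 13 lower, the latter with Myh3, Myl1, Mylpf, Tnnc2 and Tcap among them (median 0.57, beside 0.45 over all genes tested and 2.55 in other barcodes). A single WT member held 28 of the 54 Myh3 UMIs of WT. Without the member richest in leading genes of each library, Myh3 was at 221 CPM in WT (145 to 324) and 145 in KO_PBS (97.4 to 209). These intervals overlap. Rule genes are not counted here, because the share threshold of each library acts on their level. The other muscle genes moved with the rule as well. They went from 19310 to 23034 CPM in KO_PBS members at 20 times the library share, and from 10056 to 12112 in KO members without Ttn. Only 36 of them had enough UMIs over KO and WT members, so many of the 61 and 72 entered through KO_PBS. The muscle counts of all these comparisons, KO against WT included, thus depend in part on the selection and are a description.

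Muscle genes parted by gene span, the distance from start to end with introns, in all 3 comparisons of members. This split at 50 kb was chosen after the values were seen. Genes entered by their UMIs over both sums. The longer muscle genes held 297 UMIs in WT members, 216 in KO members and 1774 in KO_PBS members. Most of those tested in the pairs with KO_PBS thus entered through KO_PBS, where they were high. Such a gene could hardly be called lower, so the medians and counts of longer muscle genes in these pairs depend in part on this limit. Against WT, 31 muscle genes of 50 kb or more had a median log2 ratio of 2.03 with 19 higher and 0 lower, while 41 shorter ones had a median of -0.32 with 6 higher and 13 lower. Of all genes tested there, 232 of 1086 longer ones were higher and 13 lower, and 286 of 1845 shorter ones were higher and 178 lower. Against KO the medians were 2.26 over 29 longer muscle genes and 0.51 over 32 shorter ones. Over all genes tested in that pair they were 0.28 over 1170 longer genes and 0.04 over 1872 shorter ones. Only 9 longer muscle genes had enough UMIs over KO and WT members, so most of the 29 and of the 31 entered through KO_PBS. In KO against WT the 9 longer muscle genes had a median of 0.01 with 0 lower, and the 27 shorter ones had -1.04 with 13 lower and 1 higher. All muscle genes outside the rule held 3001 UMIs in WT members and 1168 in KO members, of which the longer ones gave 297 and 216. The shorter ones could thus enter this pair mostly through WT, where they were high. Their median and counts depend in part on that limit. All genes tested in that comparison had a median of 0.52 over 523 longer genes (38 higher, 12 lower) and -0.06 over 1289 shorter ones (114 higher, 59 lower). Over all genes tested in members against WT the medians were 0.88 for longer and 0.11 for shorter genes. In other barcodes of KO_PBS against WT, where more muscle genes had enough UMIs, the medians were 2.37 over 53 longer and 2.67 over 108 shorter ones. Dmd spans 2257 kb, Trdn 396 kb, Xirp2 80.6 kb and Ldb3 62.1 kb, whereas Tnnc2 spans 2.81 kb, Tcap 1.14 kb and Mylpf 5.41 kb. The leading gene Atp2a1 went against the split. It spans 17.3 kb and was at 237 CPM in WT members, 267 in KO and 684 in KO_PBS. Its log2 ratios of 1.53 against WT and 1.36 against KO were both past 2-fold with intervals apart.

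As a share of the muscle UMIs outside the rule, genes of 50 kb or more gave 9.90% in WT members (8.85 to 11.0%), 18.5% in KO (16.3 to 20.8%) and 45.2% in KO_PBS (43.6 to 46.8%). Other passing barcodes had 28.6%, 32.4% and 30.1%. The members of WT and KO thus lay below their libraries and those of KO_PBS above theirs. Of the 1774 UMIs of longer muscle genes in KO_PBS members, Dmd gave 429 even without the member richest in leading genes. The rule itself holds 5 genes of 50 kb or more, namely Ttn, Neb, Ryr1, Mybpc1 and Actn2. The shares in members thus depend in part on the selection and are a description. Over all genes the WT members had 16.2%, the KO members 19.0% and the KO_PBS members 25.05%, beside 13.7%, 18.1% and 21.5% in other barcodes, so the KO_PBS members were highest there too. Of the 20 leading genes 5 span 50 kb or more, and these outnumbered the 15 shorter ones in 2 of 24 WT members, 1 of 24 KO members and 21 of 103 KO_PBS members. In KO_PBS 67 members held more of the shorter ones, 10 held as many of each and 5 held none, at a median of only 5 UMIs of leading genes per member.

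The mitochondrially encoded list also differed between the members. It was at 14337 CPM in WT members (13696 to 15001) beside 7184 in other barcodes, at 8877 beside 6980 in KO, and at 9542 beside 8653 in KO_PBS. The libraries were also counted on different gene lists, 32285 genes in WT and KO and 31053 in KO_PBS, and how intronic reads were treated is not given in the sources used here. The part of these in the split by span was not tested.

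**Figure D4:**
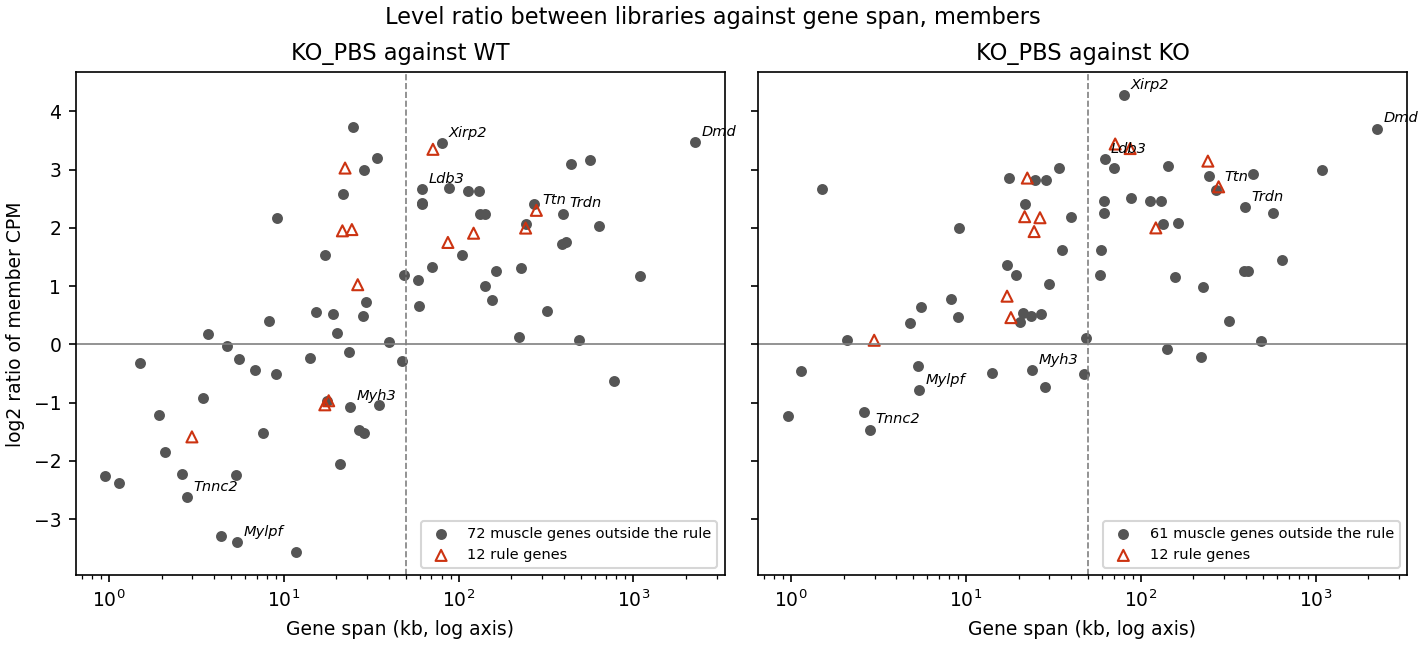
Each point is a muscle gene with at least 20 UMIs over both member sums, placed by its span in kb (log axis) and the log2 ratio of its member CPM, for KO_PBS against WT and against KO; triangles are rule genes and the dashed line is 50 kb. Against WT the short Mylpf and Tnnc2 lie below 0 and the long Dmd, Trdn and Ldb3 above it.

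Genes of the main corneal cell types stood in the members at close to the level of the library. Corneal epithelium genes were at 46520 CPM in WT members beside 54433 in other barcodes, at 37255 beside 38500 in KO, and at 22908 beside 26379 in KO_PBS. Their keratin Krt12 alone was at 22943, 12932 and 5512 CPM in members and had a UMI in every member. Keratocyte genes were at 1704 CPM beside 1394 in WT, 4322 beside 4426 in KO, and 2795 beside 3017 in KO_PBS. None of the 14 genes of either list was 2-fold above other barcodes in any library. Smooth muscle and mural genes were at 214, 215 and 1063 CPM beside 186, 190 and 1053. As a sum, the members were thus rich in skeletal muscle genes over an otherwise mixed profile. In KO_PBS members that profile was not of the cornea alone, with lens genes at 8499 CPM and photoreceptor genes at 1678 CPM. Other KO_PBS barcodes had these at 9894 and 2025 CPM. Whether each member holds a muscle nucleus was not tested.

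A few lists did stand above other barcodes in some libraries. The cardiac list was at 155 CPM (91.8 to 245) beside 74.4 in KO members. In KO_PBS members it was at 148 (99.6 to 211) beside 104, which lay within that interval. In WT members it was at 191 CPM (124 to 282) beside 20.9, mostly Myl4 with 14 UMIs (12 in a single barcode) and Actc1 with 5, both of which developing skeletal muscle is known to hold. Its Myh6 had 0 UMIs. The Schwann cell and nerve list in WT members was at 245 CPM (167 to 345) beside 113, with 2 of 10 genes 2-fold higher, beside 5.05% of all genes tested. It was at 121 beside 130.4 in KO and 300.2 beside 291 in KO_PBS. The melanocyte and pigment epithelium list was at 718 CPM beside 558 in WT, 293 beside 194 in KO and 3932 beside 4542 in KO_PBS. The lens list in WT members was at 2140 CPM beside 830, of which Cryab, a chaperone that muscle also holds, gave 1613. In KO_PBS members the lens list was at 8499 CPM beside 9894, and in KO members at 405 beside 305. No doublet caller was run, and 4 WT, 2 KO and 5 KO_PBS members lay above the 99th percentile of UMIs of their library.

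**Figure D5:**
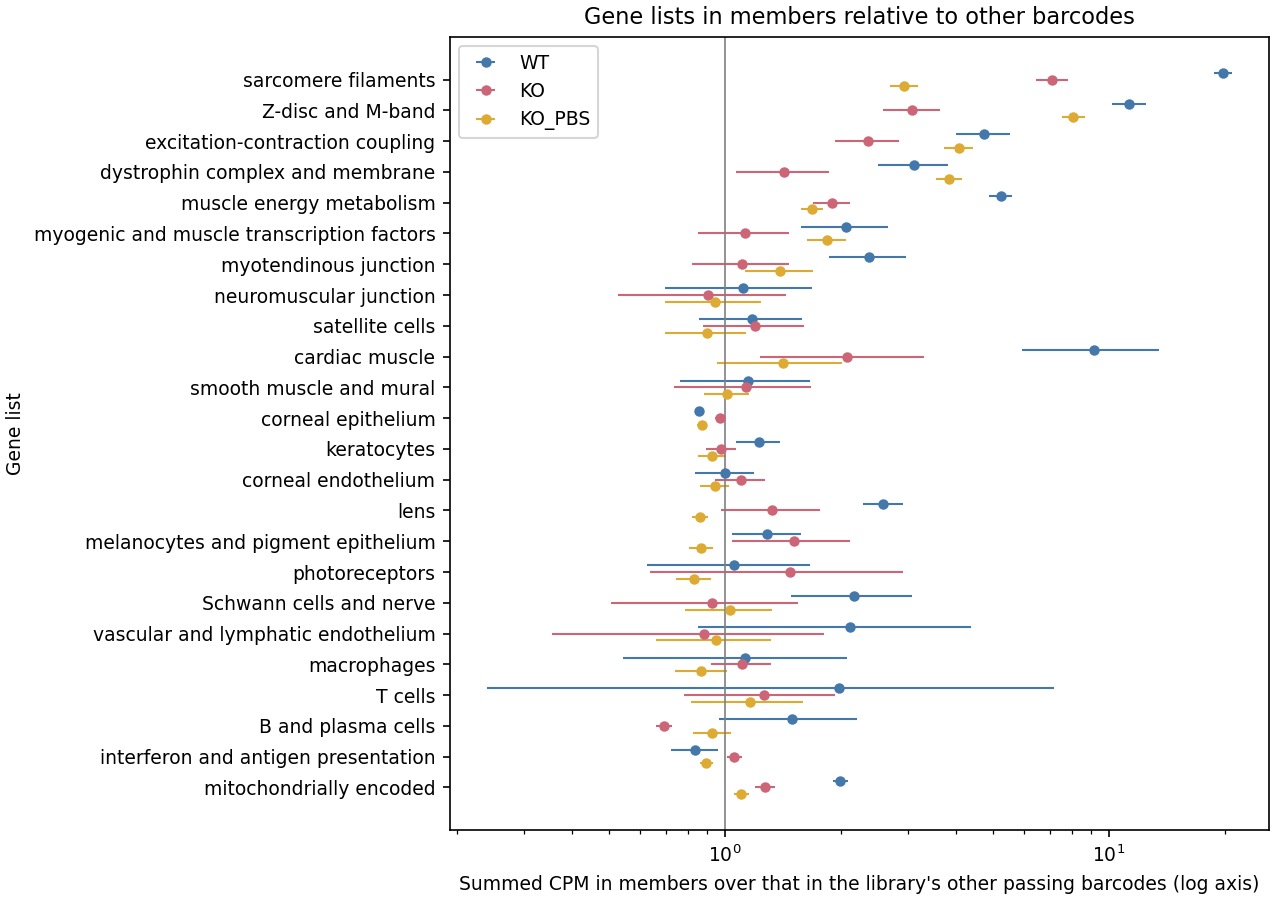
Summed level of each gene list in the members divided by that in the other passing barcodes of the same library (log axis), with 95% Poisson intervals of the member counts. Most muscle lists lie to the right of 1, the neuromuscular junction and satellite cell lists near 1, and the corneal lists near 1.

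Interferon and antigen presentation genes, which inflamed tissue raises, stood in the members near the level of each library. The interferon and antigen presentation list was at 1582 CPM in WT members, 15377 in KO and 11914 in KO_PBS, beside 1896, 14530 and 13315 in other barcodes. In KO against WT, 18 of 19 genes with enough UMIs were higher in members (median log2 ratio 3.34), beside 8.38% of all genes tested. WT members held 207 UMIs of the list, with none in 18 of its 42 genes, and KO members held 1786. Many of the 19 thus had enough UMIs through KO, where they were high, and the count in members depends in part on that limit. In other barcodes all 42 had enough UMIs, and 41 of 42 were higher with a median of 3.73. Cd74, the invariant chain of antigen presentation, was at 53.5, 2161 and 1668 CPM in members and at 65.8, 2113 and 1898 in other barcodes. B2m was at 68.8, 1834 and 1840 CPM beside 118, 1770 and 2076. Igkc, the kappa antibody chain, had 0 UMIs in WT members and was at 9040 CPM in KO and 876 in KO_PBS members, where other barcodes had it in the same order of libraries.

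Among the largest ratios between members, few were of muscle genes. In KO against WT the higher genes were Igkc, Ighg1, Slpi, Saa3 and Cd74, and the lower ones Csrp3 (-3.83), Cryab (-3.16), Cox8b (-3.00), Ptgds (-2.72) and Mb. In KO_PBS against KO the higher genes were the lens crystallins Cryaa (5.91), Crygb (5.56), Crygd (5.45), Crygs (5.15) and Crygc (5.14), with 5.24 to 6.11 in other barcodes. The lower ones were Slpi (-7.42), Nme2 (-5.15), AY036118 (-5.11), Ighg2b (-4.77) and Ighg2c (-4.68). In other barcodes these had ratios from -7.77 (Slpi) to -4.39 (Nme2). In KO_PBS against WT the higher genes included Igkc (5.26), Cd74 (4.96), Agbl1 (4.79) and B2m (4.74), and the lower ones AY036118 (-5.81), Nme2 (-5.53), Jarid2 (-5.07), Tmtc2 (-4.36) and Atp6v0c (-4.14). In other barcodes those lower genes had ratios from -6.75 (Atp6v0c) to -4.41 (Nme2), so the lower ratios of KO_PBS were not particular to the members. Igkc had 8.98 there, Cd74 4.85 and B2m 4.14, whereas Agbl1 had a ratio of 2.28 in other barcodes. Ratios against counts under 3 were computed with 3 in their place, and antibody genes belong to families whose reads can be split between copies.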

How the data were processed

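The matrices that the authors deposited hold raw UMI counts, 1 matrix for each of 3 single-nucleus libraries (10x 3′ chemistry, version 3). Counting used Cell Ranger 7.0.1, per the file headers, and mm10, per the submitters' processing notes. Neither the annotation nor how intronic reads were handled nor how barcodes were filtered is given in the sources used here. The 30406 gene IDs listed for every library were compared and held 99.3 to 99.6% of the UMIs. Members and gene lists were chosen with earlier results of these data known. UMIs were summed over members, over other passing barcodes and over the 25% of barcodes with the fewest UMIs, and scaled to CPM. Ratios set counts below 3 to 3. No test was possible with 1 library per group. Named genes were the rule genes, the 20 with the largest fold in members (CPM + 10, at least 20 UMIs), the 5 largest ratios each way per pair, up to 4 leading genes of a list, and Myh and junction genes. Mitochondrial, ribosomal, Gm-number and Rik names were left out, and a gene that this rule also named is not reported here. Xirp2, Dmd and Mef2c follow from the lists, and the 4 printed promoters were chosen after values were seen. Gene spans come from GENCODE M21 (GRCm38, the same build as mm10) and promoters from RefSeq (GRCm38.p6). Intervals came from scipy 1.17.1 and sums from numpy 2.4.6, in scripts (python 3.11.15) that were tested on simulated data.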

Additional observations from a re-analysis of the deposited data

How the results depend on the processing

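No paired analysis was possible because each group has 1 library, and for the same reason no replicate could be left out. With at least 5 rule genes the KO members numbered 10 (KO_PBS 53), with at most 1% mitochondrial UMIs 14 (WT 8, KO_PBS 48), without Ttn in the rule 12 (KO_PBS 67), and thinned to 1000 UMIs 0 (WT 8, KO_PBS 58). At 20 times the library share KO_PBS had 63 members, and with 1000 genes 67. Numbers of WT and KO members were within 1.5 times the reported ones under the other settings, as were those of KO_PBS with a common threshold (141) or without shared barcodes (100).

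Muscle genes outside the rule were, without Ttn in the rule, at 23920 CPM in WT, 12112 in KO and 23267 in KO_PBS members. With the profile of the barcodes with the fewest UMIs subtracted at the share set by Krt12, they were at 110561, 43080 and 57075 CPM. Without the deepest members WT was at 20257 and KO_PBS at 20426, without the member richest in these genes at 20308 and 18672, and at 20 times the library share KO_PBS was at 23034. KO stayed lowest in each setting run for all libraries.

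The share of muscle UMIs from long genes was 32.7% in WT, 39.7% in KO and 64.5% in KO_PBS members at a limit of 20 kb, and 7.80%, 15.8% and 33.6% at 100 kb. Without Ttn in the rule, which kept the other long rule genes, it was 8.91%, 16.6% and 45.2%. These limits were chosen after the data were seen.

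Genes higher in KO than in WT members numbered 63 with at least 50 UMIs and 234 without a minimum. In KO_PBS against KO 137 were higher with at least 50 UMIs and 185 at equal UMIs. In KO_PBS against WT 204 were higher with at least 50 UMIs, 269 after centring and 336 at equal UMIs, and 409 were lower after centring. Depth limits all of these, since most genes had under 20 UMIs in the members.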
